A study of Mus musculus with 12 samples.

Results

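Cyp1a1 and 6 other genes of the aryl hydrocarbon response (Cyp1a2, Cyp1b1, Ahr, Ahrr, Tiparp and Nqo1) were followed through 12 RNA-seq libraries of mouse metabolic organs. They were taken by symbol, 7 of the 22276 gene symbols with an expression value, and each of the 7 was listed once with a value in every library. The set was selected on 1 measured value, the high Cyp1a1 level in brown adipose tissue (BAT) of drug-treated mice, so that level is a description here and the question was whether the other genes of the response stood high in the same library. The mice were male C57BL/6J on a normal chow diet (NCD) or on a high-fat diet (HFD, 60% of calories from fat) from 8 to 17 wk of age. From 10 wk of age they were gavaged once a week for 7 wk with vehicle (veh, hydroxypropyl cyclodextrin in solution) or with the plant alkaloid narciclasine (ncls) at 1 mg/kg. The groups were thus NCD-veh, HFD-veh and HFD-ncls, in which diet or drug differs between neighbours and strain, sex, age and gavage are shared. White adipose tissue (WAT), BAT, liver and quadriceps muscle were taken at 17 wk of age and gave 1 library per organ and group. The number of mice behind a library is not given in the sources used here. With 1 library per organ and group there was no replicate spread within an organ and no test was run, and every difference below compares libraries.

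The aryl hydrocarbon receptor, encoded by Ahr, is a ligand-activated transcription factor that waits in the cytosol in a complex with heat shock protein 90 and co-chaperones such as Ptges3. On binding a planar aromatic ligand, dietary or environmental, it enters the nucleus, pairs with Arnt and binds short response elements in DNA that hold the core letters GCGTG. Its classical targets are the cytochrome P450 genes Cyp1a1, Cyp1a2 and Cyp1b1, whose enzymes oxidize such ligands, and genes of conjugation and quinone reduction such as Nqo1. A pair of its targets closes a negative feedback, the repressor Ahrr and the ADP-ribosyltransferase Tiparp. Cyp1a1 is low in most unexposed tissues and strongly inducible, Cyp1a2 is made at a high level by hepatocytes, and Nqo1 is also a target of the oxidative stress factor Nrf2.

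In the mouse genome build mm9, with GENCODE annotation, the protein-coding gene Cyp1a1 lies on the plus strand of chromosome 9 at chr9:57545420-57551629. Cyp1a2 lies head to head with it on the minus strand at chr9:57524744-57531462, with 13957 bases between the starts of the 2 genes. The other members are at chr17:80106234-80114401 (Cyp1b1, minus strand), chr12:36182646-36219710 (Ahr, minus), chr13:74348566-74429779 (Ahrr, minus), chr3:65332332-65359067 (Tiparp, plus) and chr8:109912125-109927106 (Nqo1, minus). The 1500 bases before the annotated start of each of 22373 protein-coding genes were searched on both strands for TNGCGTG, a form of the response element that contains the core GCGTG. Cyp1a1 held 7 matches, and no other gene held more than 4. Cyp1b1 and Ahrr held 2 each, a number reached by 1.85% of genes. Tiparp and Nqo1 held 1 each, a number reached by 16.2% of genes, and Cyp1a2 held none. The core GCGTG alone occurred 12 times before Cyp1a1 (0.0805% of genes have as many), 10 times before Cyp1b1 (0.201%), 6 times before Ahrr and Tiparp (2.51%), 2 times before Cyp1a2 (36.6%) and 1 time before Nqo1 (63.4%). The 7 Cyp1a1 matches begin 493, 826, 897, 986, 1063, 1208 and 1384 bases upstream of the start. A match of letters is a description of the sequence and not a measured binding site.

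The stretch that holds 4 of the 7 Cyp1a1 matches is shown because Cyp1a1 stands apart from the other members in the number of matches. It is the plus strand of chr9:57544329-57544628 in mm9, between Cyp1a2 and Cyp1a1, from 1091 to 792 bases upstream of the start. Beside it are the 250 bases before the start of Ahrr (minus strand of chr13:74292332-74292581) and of Cyp1a2 (minus strand of chr9:57683656-57683905) from RefSeq, in build GRCm38.p6, as a gene with a match close to its start and a gene without one. Capitals mark TNGCGTG or its reverse complement, and all 3 are written 5′ to 3′.
Cyp1a1 upstream stretch: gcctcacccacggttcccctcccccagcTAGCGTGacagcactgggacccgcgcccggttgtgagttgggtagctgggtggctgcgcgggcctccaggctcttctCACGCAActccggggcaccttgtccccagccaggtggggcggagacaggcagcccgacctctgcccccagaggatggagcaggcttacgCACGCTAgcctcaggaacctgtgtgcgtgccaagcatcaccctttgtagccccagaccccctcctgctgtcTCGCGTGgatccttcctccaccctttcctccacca
Ahrr promoter: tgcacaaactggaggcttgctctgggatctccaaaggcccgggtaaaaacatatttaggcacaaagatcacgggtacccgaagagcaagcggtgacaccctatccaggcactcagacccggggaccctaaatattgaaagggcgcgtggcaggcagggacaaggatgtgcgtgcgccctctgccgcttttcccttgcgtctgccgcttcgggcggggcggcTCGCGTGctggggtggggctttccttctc
Cyp1a2 promoter: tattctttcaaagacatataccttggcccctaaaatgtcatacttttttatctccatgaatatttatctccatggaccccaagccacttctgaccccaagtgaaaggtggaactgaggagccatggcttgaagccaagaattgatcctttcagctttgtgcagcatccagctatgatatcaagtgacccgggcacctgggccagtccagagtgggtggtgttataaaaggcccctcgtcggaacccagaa
RefSeq promoters were matched for 6 of the 7 members. Among 32851 RefSeq promoters, 4.10% held TNGCGTG in these 250 bases, and Ahrr was the member that did. The core GCGTG was present in 28.2% of promoters and in those of Cyp1a1, Cyp1b1, Ahrr and Tiparp.

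The libraries held about 20100000 to 28500000 fragments, estimated from the steps between the lowest values, so a value near 0.02 FPKM (fragments per kilobase of transcript, scaled to the fragments mapped) rests on a few fragments. The brown fat gene Ucp1 stood at 740 to 770 FPKM in BAT and at no more than 3.92 FPKM elsewhere, and the summed liver and muscle markers were highest in the liver and muscle libraries, as the labels say. Several libraries held transcripts of another organ. Summed over 7 liver markers, HFD-veh muscle stood at 275 FPKM against 1.06 in NCD-veh and 0.448 in HFD-ncls muscle, and WAT at 2.22 (NCD-veh), 28.4 (HFD-veh) and 105 FPKM (HFD-ncls). Summed over 7 muscle markers, BAT stood at 1798 (NCD-veh), 729 (HFD-veh) and 106 FPKM (HFD-ncls), and HFD-veh liver at 56.9 FPKM against 2.14 and 3.11 in the other liver libraries. These are given again beside each result that they touch.

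Cyp1a1 reached its highest level of the 12 libraries in HFD-ncls BAT, at 27.5 FPKM. The other BAT libraries stood at 3.36 FPKM (NCD-veh) and 0.719 FPKM (HFD-veh). In liver the levels were 3.10 (NCD-veh), 2.92 (HFD-veh) and 2.29 FPKM (HFD-ncls). These 3 lie close together and inside the range of BAT. Cyp1a2 is abundant in liver and shares a run of bases with Cyp1a1, so the liver values cannot be told apart from Cyp1a2 reads. In muscle they were 0.738, 0.319 and 0.515 FPKM in the same order, and in WAT 0.127, 0.0745 and 0.0205 FPKM. WAT lay below every other organ without overlap, muscle lay below liver, and the lowest BAT library lay within the muscle range. The HFD-ncls BAT value was thus the highest of its organ, whereas HFD-ncls was the lowest library in liver and WAT. HFD-veh stood below NCD-veh in all 4 organs, with log2 differences of -0.38 in WAT, -2.08 in BAT, -0.08 in liver and -1.0 in muscle. In WAT the 3 values rest on about 6.96, 4.0 and 0.995 fragments.

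**Figure D1:**
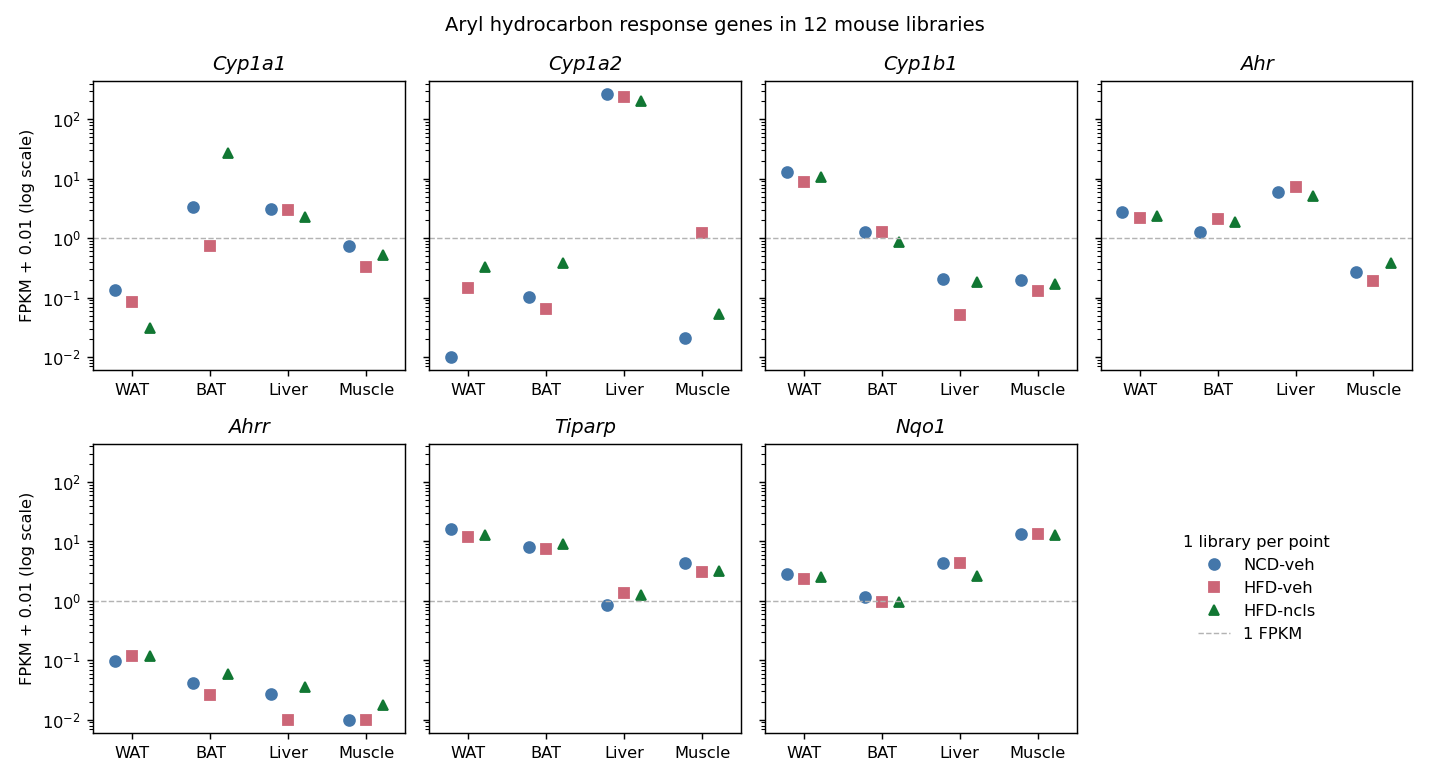
FPKM + 0.01 of the 7 genes on a log axis, by organ, with 1 point per library (circle NCD-veh, square HFD-veh, triangle HFD-ncls) and a dashed line at 1 FPKM. Cyp1a1 in HFD-ncls BAT (27.5 FPKM) stands above all its other libraries, while the 3 points of Tiparp and of Nqo1 lie in a narrow band in each organ.

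Between the BAT libraries, log2 differences were computed as log2 of the ratio of FPKM + 0.1. Cyp1a1 in HFD-ncls stood 5.07 above HFD-veh on this scale (33.6-fold) and 2.99 above NCD-veh (7.97-fold). HFD-veh stood 4.22-fold below NCD-veh, so the difference from HFD-veh is larger than that from NCD-veh. Approximate fragment numbers behind the levels were 231 (NCD-veh), 47.2 (HFD-veh) and 1799.9 (HFD-ncls), and the 3 differences share libraries and are not independent. Of the 10331 genes with at least 1 FPKM in HFD-veh or HFD-ncls BAT, 1.96% differed over 2-fold (27 higher and 176 lower in HFD-ncls). Ranked by the log2 difference of HFD-ncls over the higher of the other 2 BAT libraries, Cyp1a1 took rank 5 of 10533 genes, and 17 genes (0.161%) were over 2-fold above both.

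The 4 genes ranked above Cyp1a1 were the ribosomal protein genes Rpl22 and Rpl26, the pseudogene Pisd-ps1 and the zinc finger gene Zbtb24. Each was at 0.0402 FPKM or less in the other BAT libraries and at 16.9, 5.43, 8.31 and 1.83 FPKM in HFD-ncls. Ribosomal protein genes and pseudogenes share reads with near-identical copies, so the first 3 values are uncertain. With a floor of 0.1 FPKM in all 3 BAT libraries, Cyp1a1 was the highest-ranked gene. This floor was not a planned setting and leaves out all 4 genes, Zbtb24 included. The set was selected on the Cyp1a1 value, so its rank is a description. The next gene, Lgals6, stood at 1.06 (NCD-veh), 1.01 (HFD-veh) and 3.90 FPKM (HFD-ncls), a log2 difference of 1.78 from the higher. Of the other members, Tiparp took rank 1040, Ahr 5496, Nqo1 6806 and Cyp1b1 9432 in this order, and Cyp1a2 and Ahrr stayed under 1 FPKM in every BAT library and were not ranked.

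Cell type markers moved between the same BAT libraries. The 7 muscle markers stood at a median of 1.96% (NCD-veh), 0.755% (HFD-veh) and 0.116% (HFD-ncls) of their muscle level in BAT, the opposite order to Cyp1a1 for the HFD pair. Muscle at those shares would carry 0.0144, 0.00241 and 0.000598 FPKM of Cyp1a1. The 6 brown adipocyte markers summed to 8225 (NCD-veh), 9126 (HFD-veh) and 10118 FPKM (HFD-ncls), the 5 white adipocyte markers to 1490, 959 and 1426 FPKM, and the 6 endothelial markers, for vessel cells in which Cyp1a1 is readily induced, to 167, 217 and 202 FPKM. Single adipocyte markers went both ways between HFD-veh and HFD-ncls, with a median log2 difference of 0.02 for the brown list and 0.05 for the white list. Of the brown markers, 3 of 6 stood higher in HFD-ncls, Cox8b (5142 and 5863 FPKM) and Cox7a1 (2085 and 2239 FPKM), which muscle also expresses, with Cidea, while Dio2 (1.62 and 0.484 FPKM) was over 2-fold lower. Of the white markers, 3 of 5 stood higher, Cfd over 2-fold (404 and 853 FPKM), while Lep and Plin1 stood lower. The 4 macrophage markers with values summed to 7.92, 14.3 and 6.02 FPKM. Epithelia that can carry Cyp1a1 were barely seen, with all 4 lung markers listed at 0 in NCD-veh and HFD-ncls and a sum of 0.0179 FPKM in HFD-veh. Gut markers summed to 0.334, 0.529 and 0.593 FPKM (2, 1 and 2 of 4 listed at 0), keratinocyte markers to 0.390, 0.465 and 0.385 FPKM (3, 3 and 2 of 4 at 0) and the 2 red cell markers with values to 455, 332 and 272 FPKM. Their part in the Cyp1a1 value was not tested. In bulk tissue, fewer cells of a type and less RNA per cell cannot be told apart.

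No other member that reached 1 FPKM differed over 2-fold between the HFD libraries of BAT. Of the 4 that reached 1 FPKM in either HFD library, Cyp1a1 differed over 2-fold, against 1.96% of all genes, and that difference is the one the set was built on. Tiparp, a direct target and feedback inhibitor, stood at 8.17 (NCD-veh), 7.36 (HFD-veh) and 8.89 FPKM (HFD-ncls). HFD-ncls was the highest of the 3, with a log2 difference of 0.27 from HFD-veh and 0.12 from NCD-veh. Cyp1b1, which oxidizes steroids and aromatic ligands in stromal cells, stood at 1.28, 1.26 and 0.849 FPKM, lowest in HFD-ncls (log2 difference -0.52 from HFD-veh). Ahr itself was at 1.28, 2.12 and 1.88 FPKM, with a log2 difference of 0.69 between HFD-veh and NCD-veh and -0.16 between the HFD libraries. Nqo1, a quinone reductase, was at 1.14, 0.950 and 0.952 FPKM, so the HFD libraries stood level. Muscle RNA at the marker shares above would add 0.261, 0.102 and 0.0148 FPKM of Nqo1. Ahrr, which competes with Ahr for Arnt, was at 0.0310, 0.0162 and 0.0486 FPKM, about 4.32, 2.15 and 6.45 fragments, a difference that could not be resolved at this depth.

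Cyp1a2 had its BAT values in the order of Cyp1a1, with HFD-veh lowest and HFD-ncls highest. Tiparp and Ahrr had this order too, but Tiparp differed by a log2 of at most 0.27 and Ahrr rests on about 6.45 fragments or fewer. Cyp1a2 stood at 0.0934 (NCD-veh), 0.0542 (HFD-veh) and 0.369 FPKM (HFD-ncls). These rest on about 4.51, 2.49 and 16.9 fragments and lie under the 1 FPKM filter. The transcripts of the 2 neighbouring genes share a run of 137 identical bases, and 94 of the 50-base stretches of Cyp1a2 (5.10%) also occur in Cyp1a1 (3.66% of its own). How reads in the shared run were assigned is not given in the sources used here, so the Cyp1a2 level in BAT cannot be told apart from Cyp1a1 reads assigned to it. Within 100 kb of Cyp1a1, 7 protein-coding genes had values and 3 of them (Csk, Edc3 and Clk3) reached 1 FPKM in the HFD libraries of BAT. Their log2 differences ran from -0.21 to 0.33.

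**Figure D2:**
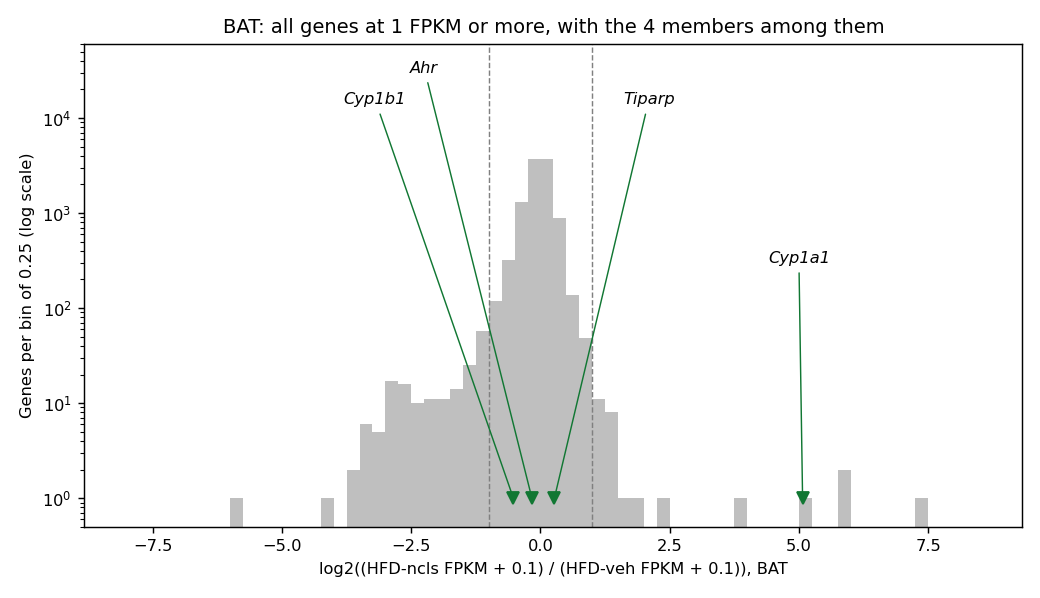
Histogram of log2((HFD-ncls FPKM + 0.1)/(HFD-veh FPKM + 0.1)) in BAT for the 10331 genes at 1 FPKM or more in either library, with genes per bin on a log axis, dashed lines at 2-fold and triangles at the 4 members that reached 1 FPKM. Cyp1a1 lies at 5.07, far to the right of the bulk, while Cyp1b1 (-0.52), Ahr (-0.16) and Tiparp (0.27) lie within the dashed lines.

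Lists of further genes of the pathway were read in BAT in the same way. The classical gene battery has 7 genes, the 3 P450 genes with Nqo1, Aldh3a1, Ugt1a6a and Gsta1. Of these, 2 reached 1 FPKM in the HFD libraries and Cyp1a1 was the 1 over 2-fold, against 1.96% of all genes. That is the value the set was selected on. The aldehyde dehydrogenase Aldh3a1 was listed at 0 in both HFD libraries, the glutathione transferase Gsta1 was listed at 0 in HFD-ncls and at 0.0186 FPKM in HFD-veh, and the glucuronosyltransferase Ugt1a6a was at 0.158 and 0.240 FPKM. Of 20 wider targets, which include Ahrr and Tiparp, 10 reached 1 FPKM and none differed over 2-fold. Their log2 differences between HFD-ncls and HFD-veh ran from -0.66 to 0.30 with a median of 0.02, beside -0.02 over all genes. The highest were Socs2, a suppressor of cytokine signalling, at 3.25 and 4.04 FPKM (0.30), and Tiparp (0.27). The lowest were Ugt1a6b, at 2.80 and 1.73 FPKM (-0.66), and Ugdh, which makes the sugar donor for glucuronidation, at 3.32 and 3.0 FPKM (-0.14). Under 1 FPKM, the highest were Stc2 (0.0691 and 0.162 FPKM) and Scin (0.0131 and 0.0656 FPKM) and the lowest was Ido1 (0.406 and 0.163 FPKM), in the order HFD-veh and HFD-ncls as above.

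The receptor's own machinery varied little between the HFD libraries of BAT. Of 10 genes, 8 reached 1 FPKM and none differed over 2-fold, against 1.96% of all genes. Their log2 differences ran from -0.25 (the chaperone Hsp90aa1, 24.2 and 20.3 FPKM) to 0.20 (the coactivator Ncoa1, 3.37 and 3.88 FPKM), with a median of -0.07. Ahr (-0.16) was next lowest, and Arnt, its nuclear partner, next highest at 7.77 and 8.56 FPKM (0.14). The corepressor Nrip1 stayed under the filter at 0.618 and 0.390 FPKM. Of 16 Nrf2 targets, 12 reached 1 FPKM, none differed over 2-fold and 2 stood higher in HFD-ncls, with a median of -0.29. The lowest were malic enzyme Me1 (41.5 and 22.0 FPKM, -0.92) and heme oxygenase Hmox1 (11.3 and 5.93 FPKM, -0.91), and the highest were Gsta4 (39.2 and 45.8 FPKM, 0.22) and Gclc (3.25 and 3.28 FPKM, 0.01). Of 6 targets of the xenobiotic receptors CAR and PXR, 2 reached 1 FPKM, Cyp2b13 at 0.655 and 1.19 FPKM (0.78) and Cyp2b10 at 12.8 and 17.4 FPKM (0.43). Of the rest, Cyp3a11 was listed at 0 in both libraries and Cyp2b9 was at 0.0204 and 0.0237 FPKM. Genes of the Cyp2b cluster are near copies of each other, so the split of reads between them is uncertain.

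NCD-veh BAT served as a further point of reference for both HFD libraries. Between HFD-veh and NCD-veh, 5 members reached 1 FPKM and Cyp1a1, lower in HFD-veh, was the 1 over 2-fold, against 4.29% of all genes. In this pair the battery had 3 genes at 1 FPKM with Cyp1a1 over 2-fold, and of 10 wider targets Ugt1a6b was over 2-fold higher in HFD-veh, at 1.27 FPKM in NCD-veh and 2.80 FPKM in HFD-veh (log2 difference 1.08). Between HFD-ncls and NCD-veh, 5 reached 1 FPKM and Cyp1a1, now higher, was again the 1 over 2-fold, against 4.1% of all genes. In the latter pair the battery counted 3 genes at 1 FPKM with Cyp1a1 over 2-fold, and of 10 wider targets none was. Both calls of Cyp1a1 in this pair use the HFD-ncls value that the set was selected on, so they are a description. Among 13 Nrf2 targets Me1 was over 2-fold lower, at 74.9 FPKM in NCD-veh and 22.0 FPKM in HFD-ncls.

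**Figure D3:**
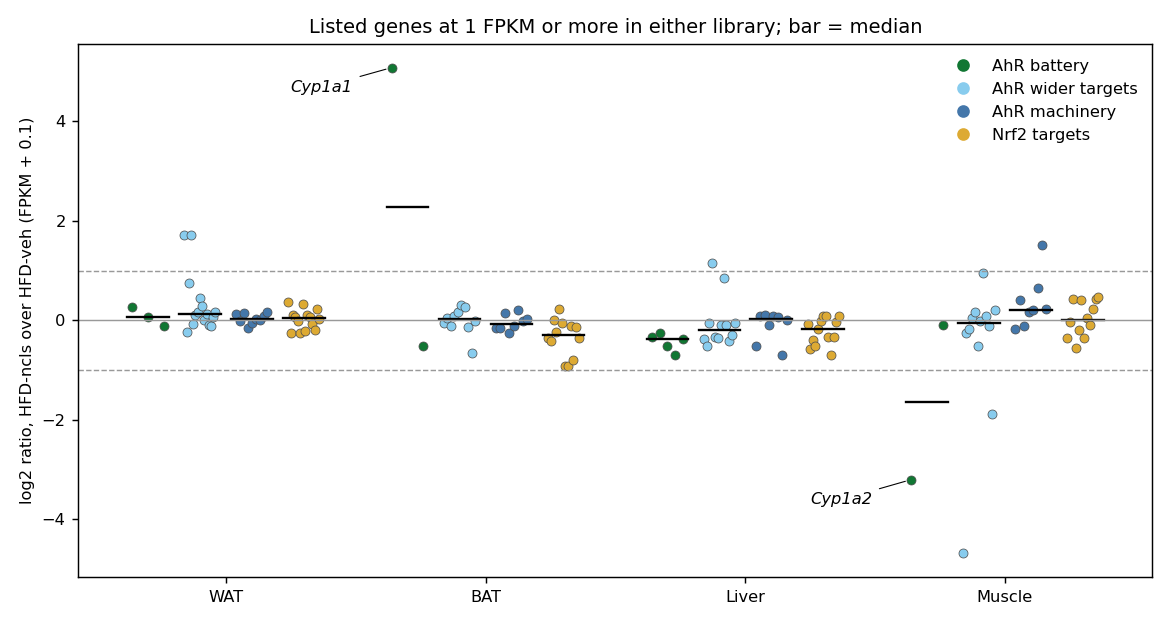
Log2 difference between HFD-ncls and HFD-veh (FPKM + 0.1) for each listed gene at 1 FPKM or more in either library, by organ and list, with bars at the medians and dashed lines at 2-fold. In BAT, Cyp1a1 (5.07) stands alone above the upper line, and Cyp1a2 in muscle (-3.22) and 2 wider targets in muscle lie below the lower line.

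In WAT no member that reached 1 FPKM differed over 2-fold in any of the 3 comparisons. The adipose stroma is a known site of Cyp1b1, which had its highest level here at 13.1 (NCD-veh), 8.96 (HFD-veh) and 10.8 FPKM (HFD-ncls), above BAT (0.849 to 1.28 FPKM) and above the overlapping liver (0.0414 to 0.198 FPKM) and muscle ranges (0.121 to 0.187 FPKM). Tiparp also had its highest level in WAT, at 16.2, 11.8 and 13.0 FPKM. Its organs were ordered without overlap, WAT over BAT (7.36 to 8.89 FPKM) over muscle (3.01 to 4.26 FPKM) over liver (0.840 to 1.34 FPKM). Ahr stood at 2.78, 2.20 and 2.39 FPKM and Nqo1 at 2.86, 2.37 and 2.50 FPKM. For all 4 of these genes NCD-veh was the highest and HFD-veh the lowest library. The 4 members at 1 FPKM lay between -0.54 and -0.26 for HFD-veh over NCD-veh (median -0.39, beside 0.03 over all genes) and between 0.07 and 0.27 for HFD-ncls over HFD-veh (median 0.13, beside 0.04). Over 2-fold differences were found for 1.7% of all genes between HFD-ncls and HFD-veh, 9.11% between HFD-veh and NCD-veh and 9.59% between HFD-ncls and NCD-veh. Macrophage markers moved with the diet contrast, as the 4 with values summed to 134, 314 and 341 FPKM. Endothelial markers summed to 158, 244 and 247 FPKM and white adipocyte markers to 13524, 5039 and 4874 FPKM. Single white markers went both ways between HFD-veh and NCD-veh, with Cfd over 2-fold lower and Lep over 2-fold higher. The part of these cell types was not tested. Ahrr was at 0.0870, 0.109 and 0.109 FPKM, the highest range of the 4 organs.

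In liver, 5 members reached 1 FPKM in each comparison and none differed over 2-fold, against 2.31% of all genes between HFD-ncls and HFD-veh, 5.12% between HFD-veh and NCD-veh and 5.2% between HFD-ncls and NCD-veh. Between HFD-ncls and HFD-veh all 5 stood lower, from -0.70 (Nqo1) to -0.09 (Tiparp), with a median of -0.34 beside 0.02 over all genes. Nqo1 was at 4.35 (NCD-veh), 4.30 (HFD-veh) and 2.61 FPKM (HFD-ncls). Ahr, which had its highest organ level in liver, was at 5.94, 7.30 and 5.09 FPKM. Cyp1a2, the hepatocyte enzyme that clears caffeine, was at 265, 241 and 201 FPKM. In these 3 genes, as in Cyp1a1, HFD-ncls was the lowest liver library. Cyp1a2 rests on about 9905 (HFD-veh) and 8662 fragments (HFD-ncls) in liver, and Cyp1a1 on about 172 and 141. Their transcripts share a run of 137 identical bases, so liver Cyp1a1 cannot be told apart from Cyp1a2 reads assigned to it. It may thus not be a separate gene in the liver counts. The battery as a whole had 5 genes at 1 FPKM, all below their HFD-veh level in HFD-ncls, with a median of -0.38 beside 0.02 over all genes. Among them were Ugt1a6a (32.3 and 24.9 FPKM) and Gsta1 (4.90 and 3.39 FPKM). The share of all genes below HFD-veh is not given here. The member and battery counts each hold both Cyp1a1 and Cyp1a2, and the member median is the Cyp1a1 value itself. Of 12 wider targets at 1 FPKM, Igfbp1, an insulin-regulated binding protein, was over 2-fold higher in HFD-ncls, at 162 against 72.7 FPKM, and at 30.7 FPKM in NCD-veh. Tiparp stood at 0.840 FPKM in NCD-veh liver, below 1.34 in HFD-veh and 1.26 in HFD-ncls.

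Of the CAR and PXR targets in liver, 5 reached 1 FPKM in the HFD pair, with a median of -2.18. Of these, 3 (Cyp2b10, Cyp2b9 and Cyp2b13) were over 2-fold lower in HFD-ncls, against 2.31% of all genes. All 3 reached 1 FPKM in HFD-veh liver alone. Cyp2b9 stood at 0.0525 (NCD-veh), 26.98 (HFD-veh) and 0.403 FPKM (HFD-ncls). In the same order Cyp2b13 was at 0.0175, 1.47 and 0.0409 FPKM and Cyp2b10 at 0.697, 1.17 and 0.182 FPKM. As near copies, these 3 may not be separate genes in the counts. Of 8 machinery genes at 1 FPKM in the HFD pair none differed over 2-fold (median 0.03). Of 13 Nrf2 targets in that pair none differed over 2-fold, with a median of -0.18 and Nqo1 as the lowest. HFD-veh liver also held muscle markers at a median of 0.0618% of their muscle level, which would carry 0.00838 FPKM of Nqo1.

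In muscle, Nqo1 had its highest organ level, at 13.3 (NCD-veh), 13.6 (HFD-veh) and 12.8 FPKM (HFD-ncls). Its liver (2.61 to 4.35 FPKM) and WAT ranges (2.37 to 2.86 FPKM) overlapped, and BAT (0.950 to 1.14 FPKM) lay below both. Ahr was lowest in muscle, at 0.264, 0.179 and 0.377 FPKM, below BAT (1.28 to 2.12 FPKM) and WAT. Tiparp stood at 4.26, 3.01 and 3.20 FPKM, highest in NCD-veh, with a log2 difference of -0.49 between HFD-veh and NCD-veh. Ahrr was listed at 0 in NCD-veh and HFD-veh and at 0.00786 FPKM, about 1.08 fragments, in HFD-ncls. Between HFD-ncls and HFD-veh 3 members reached 1 FPKM and Cyp1a2 was over 2-fold lower, against 3.8% of all genes. Between HFD-veh and NCD-veh it was over 2-fold higher among 3, against 4.11% of all genes. Cyp1a2 reached 1 FPKM in HFD-veh muscle alone, the muscle library with liver transcripts, so both counts rest on that library. Between HFD-ncls and NCD-veh, which leaves out the HFD-veh library, 2 members reached 1 FPKM, and Cyp1a2 was not among them. None of the 2 differed over 2-fold, against 1.21% of all genes.

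The Cyp1a2 values outside liver were set beside 7 liver markers, each as a percent of its level in the liver library of the same group. In HFD-veh muscle Cyp1a2 was at 1.22 FPKM, against 0.0109 in NCD-veh and 0.0422 in HFD-ncls muscle. That is 0.508% of its liver level, within the 0.486% to 0.736% of the 7 markers (median 0.553%). In WAT the shares of Cyp1a2 were 0.0554% in HFD-veh (markers 0.0500% to 0.107%) and 0.161% in HFD-ncls (markers 0.177% to 0.265%), and Cyp1a2 was listed at 0 in NCD-veh. In these 3 libraries Cyp1a2 thus lay within or just below the range of the liver markers. HFD-ncls BAT differed, since Cyp1a2 was at 0.184% of its liver level while the markers stood at 0% to 0.0110% (median 0.00175%), which would carry 0.00351 FPKM of Cyp1a2 where 0.369 FPKM was listed. In HFD-veh BAT the share was 0.0225% beside at most 0.0178% for a marker. In NCD-veh BAT the share was 0.0352%, inside the marker range of 0% to 0.0647% but above the marker median of 0.000502%. The top of that range is Apoc3 (2.85 FPKM in BAT and 4401 FPKM in liver), and Cyp1a2 rests there on about 4.51 fragments. HFD-ncls muscle, at 0.0210% beside at most 0.00324%, rests on about 2.0 fragments. Whether liver RNA carried the Cyp1a2 of muscle and WAT was not tested beyond these shares.

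**Figure D4:**
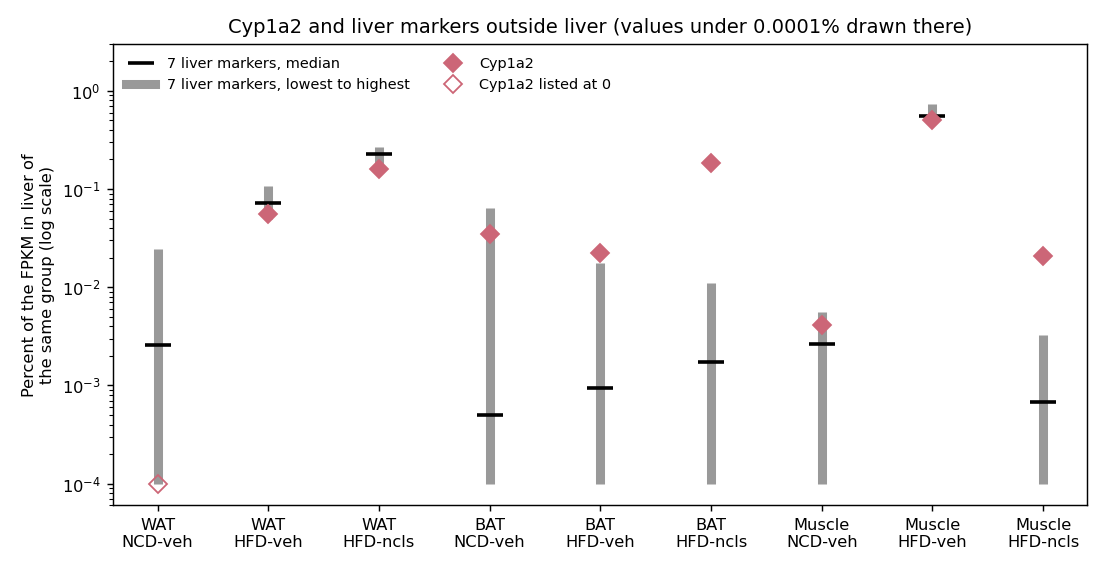
Percent of the liver level, on a log axis, of Cyp1a2 (diamonds, open where listed at 0) and of 7 liver markers (black bar median, grey bar lowest to highest) in the 9 libraries of the other organs, with values under 0.0001% drawn at that line. Cyp1a2 lies on or beside the marker range in HFD-veh and HFD-ncls WAT and HFD-veh muscle, and above it in HFD-veh and HFD-ncls BAT and HFD-ncls muscle.

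Among the wider targets of WAT and muscle, the genes over 2-fold apart included liver genes of the same libraries. In WAT, 15 wider targets reached 1 FPKM in the HFD pair and 2 were over 2-fold higher in HFD-ncls, against 1.7% of all genes over 2-fold apart. Cyp2a5, a hepatic coumarin hydroxylase and 1 of these, was at 0.268 FPKM in HFD-veh, 1.11 in HFD-ncls and listed at 0 in NCD-veh, beside all 8 liver markers, which were over 2-fold higher in the same pair. In muscle, 12 reached 1 FPKM and 2 were over 2-fold below HFD-veh in HFD-ncls, against 3.8% of all genes over 2-fold apart. Cyp2a5 stood at 2.46 FPKM in HFD-veh and was listed at 0 in the other muscle libraries. Ugt1a6b was at 0.0844 (NCD-veh), 1.21 (HFD-veh) and 0.253 FPKM (HFD-ncls) in muscle. It is not particular to liver, as it stood at 36.7, 32.8 and 30.3 FPKM in WAT in the same order. Whether liver RNA carried its muscle values was not tested. Without HFD-veh, between HFD-ncls and NCD-veh, 9 reached 1 FPKM and 1 was over 2-fold apart, against 1.21% of all genes. This was Socs2, at 3.25 (NCD-veh) and 6.69 FPKM (HFD-ncls). Of the machinery, the corepressor Nrip1 in HFD-ncls muscle was over 2-fold above HFD-veh, at 1.58, 0.745 and 2.31 FPKM in the order of the groups, and of 9 machinery genes at 1 FPKM in WAT none was. Of 3 battery genes at 1 FPKM in WAT none differed over 2-fold between the HFD libraries. Of Nrf2 targets none differed over 2-fold between the HFD libraries in either organ, among 14 at 1 FPKM in WAT and 12 in muscle. At the shares of all genes above (1.7% in WAT and 3.8% in muscle), lists this short could hold none. The CAR and PXR target Cyp3a11, the 1 of its list at 1 FPKM in muscle, was over 2-fold lower in HFD-ncls, against 3.8% of all genes. It stood at 1.83 FPKM in HFD-veh and was listed at 0 in the other muscle libraries.

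Over the 12 libraries, the genes whose log2(FPKM + 0.1) was most like Cyp1a1, of 13647 genes at 1 FPKM in at least 1 library, were Metap1d (Pearson r 0.91), Polr2i (0.90), Rab3ip (0.89), Mrps10 (0.89) and Uxt (0.87). Spearman's rho was 0.87, 0.90, 0.85, 0.87 and 0.92 in this order. The 12 points come from 4 organs, so these values describe the order of organs as much as that of groups. None of the 5 had a difference of the Cyp1a1 size in BAT, where HFD-ncls stood at 0.977 to 1.26 times their next library. Uxt had the order of Cyp1a1 there, at 8.43 (NCD-veh), 7.13 (HFD-veh) and 8.68 FPKM (HFD-ncls). Of the other members, Cyp1a2 had an r of 0.40 with Cyp1a1, Ahr 0.25, Nqo1 -0.33, Tiparp -0.40 and Cyp1b1 -0.53, and Ahrr lay under the filter. Within the HFD-ncls BAT library, on the FPKM scale that allows for transcript length, Cyp1a1 (27.5) was the highest of the 7 genes, above Tiparp (8.89), whereas in HFD-veh BAT Tiparp (7.36), Ahr (2.12), Cyp1b1 (1.26) and Nqo1 (0.950) stood above it.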

How the data were processed

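RNA was measured in 12 libraries, 1 for each of 4 organs and 3 groups, sequenced on the Illumina platform from total RNA. Per the labels and methods, alignment to mm9 used TopHat 2.0.11 and Cufflinks gave RefSeq gene levels, which the authors deposited as FPKM, fragments per kilobase of transcript scaled to the fragments mapped. The library strand and the handling of reads shared between gene copies are not given in the sources used here. Groups came from the sample titles, and a column named drug was taken as the narciclasine sample of that organ. A value was missing from 1 or more libraries for 86 symbols, and no column of another sample was present.

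Log2 differences used a pseudocount of 0.1 FPKM and genes at 1 FPKM or more in either library of a pair. The 2-fold threshold is that of the study's methods, whose p-value criteria need replicates. A pseudocount understates the change of low genes. Approximate depth came from the steps between low FPKM values, with transcripts shortened by 200 bases. Between 69.0% and 76.8% of the values up to 4.5 fragments lay within 0.15 of a whole number, so no count test was run and no interval is given. Positions and upstream sequence came from GENCODE on mm9, and promoters from RefSeq on GRCm38.p6, without converting coordinates.

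The members and gene lists were chosen with earlier results of these data known. The genes named were the 7 members, the 2 highest and 2 lowest of each list by the difference of HFD-ncls over HFD-veh in BAT (with and without the filter), genes ranked above Cyp1a1 in BAT and the 5 most like Cyp1a1. Other list genes, those over 2-fold in another organ included, were named after their values were seen. A few listed genes are counted but not reported here by name. Shares of liver or muscle level used 7 of 8 markers, since Alb and Myh4 lack a value in their own organ. Scripts ran on matplotlib 3.10.9, scipy 1.17.1, pandas 2.3.3 and numpy 2.4.6 under Python 3.11.15. The depth step was tested on simulated counts. The ratio step was tested on the HFD-veh BAT library with known changes put in and no added noise. Alternatives were pseudocounts of 1 and 0.01 FPKM, rescaling by the median ratio, no filter or a filter of 5 FPKM, Spearman's rho and the mean liver library. A log2 value counted as moved when it changed by over 1.5-fold, and a count when it changed by over 1.5 times.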

Additional observations from a re-analysis of the deposited data

Results flagged for a closer look

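Some members differed in opposite directions in different organs, each by over 1.4-fold, in the same comparison. With 1 library per organ and group these differences between organs were not tested. Log2 differences of HFD-ncls over HFD-veh for Cyp1a1 were 5.07 in BAT, 0.56 in muscle and -0.53 in WAT, and of HFD-ncls over NCD-veh 2.99 in BAT and -0.91 in WAT. The WAT values rest on about 0.995 to 6.96 fragments. For Cyp1a2 the differences of HFD-ncls over HFD-veh were 0.86 in WAT, 1.61 in BAT and -3.22 in muscle, where liver markers moved in WAT and muscle in the same direction and the BAT value cannot be told apart from Cyp1a1 reads assigned to it. At least 1 library of each Cyp1a2 pair held about 5.01 fragments or fewer, so these values depend on the pseudocount. For Cyp1b1 they were 0.96 in liver, with about 4.96 fragments in HFD-veh, and -0.52 in BAT. For Ahr they were 0.77 in muscle, under 1 FPKM in both libraries, and -0.51 in liver. Tiparp differed by 0.62 in liver and by -0.49 in muscle between HFD-veh and NCD-veh.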

How the results depend on the processing

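Each organ and group had 1 library, so none could be left out of a comparison within an organ. A fit over all 12 libraries with the organ as a block was not run, since it estimates a difference shared by the organs and not one within BAT. Of 252 recomputed member differences (84 under 3 alternatives), 29 moved by over 1.5-fold, 13 with a pseudocount of 1 FPKM, 16 with 0.01 FPKM and 0 on rescaling, and 0 differences over 2-fold changed sign. The Cyp1a1 log2 differences in BAT became 4.05 (HFD-ncls over HFD-veh) and -1.34 (HFD-veh over NCD-veh) with a pseudocount of 1 FPKM, by its construction smaller for low values. Without the filter on FPKM, 2 members and 2 battery genes were over 2-fold apart between HFD-ncls and HFD-veh BAT, as Cyp1a2 joined Cyp1a1. Cyp1a2 rests there on about 16.9 (HFD-ncls) and 2.49 fragments (HFD-veh) and cannot be told apart from Cyp1a1 reads assigned to it. No share of all genes without the filter is given here. The rank of Cyp1a1 in BAT became 3 with a pseudocount of 1 FPKM. Of the 5 genes most like Cyp1a1, 1 was also among the top 5 by Spearman's rho and 1 with a pseudocount of 1 FPKM, and the cause was not tested. Depth limits values under about 0.1 FPKM, such as those of Ahrr.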
